A study of Mus musculus with 4 samples.

Results

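RNA levels of the glutathione, thioredoxin and NRF2 antioxidant genes were compared between MBP-treated and untreated C8-D1A cells, an established mouse line labelled as astrocytes of the brain. The genes were taken by symbol from a list of 43 names covering cystine import, glutathione synthesis, peroxidases, transferases, iron storage and NADPH supply. The deposited table held 42 of them among its 24169 genes, and Gpx7 was not analysed here. The treated group was kept for 24 h in 1 mM MBP (2 libraries, MBP 1 and MBP 2) and the other group was untreated (2 libraries, control 1 and control 2). MBP is not spelled out in the labels; the series title names DBP. Both groups are the same line, and nothing in the labels tells whether replicate libraries were grown as separate cultures, so p-values reflect only how far these 4 samples vary, and that variation may be technical. In such bulk RNA, fewer cells of a type and less RNA per cell cannot be told apart.

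Glutathione is made from cysteine, which many cells import as cystine, and it is used by peroxidases and transferases to remove peroxides and reactive compounds. The thioredoxin and peroxiredoxin enzymes form a parallel system, and both draw their electrons from NADPH. Many of these genes are targets of NRF2, a transcription factor that KEAP1 marks for degradation until oxidants or electrophiles modify KEAP1. In the brain, astrocytes are known for high NRF2 activity and for supplying neurons with glutathione precursors.

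Of the 42 genes, 41 had at least 1 FPKM (fragment counts scaled to transcript length and sequencing depth) in at least 2 of the 4 libraries and entered the test. The test was limma's moderated test of log2(FPKM + 1) across 12403 genes, with p-values adjusted over all of them. None of the 41 genes passed an adjusted p under 0.05, as was so for all tested genes (percent passing 0). Limma-voom on recovered reads used a different set, the genes averaging 10 or more reads. There 18 genes of that set passed, a share that was not computed, and 0 of the 41. The lowest adjusted p among the 41 was 0.457, for Slc7a11. At an unadjusted p under 0.05, 1 of the 41 was higher in MBP (3.81% of all tested genes) and 5 were lower (5.87%). The differences below are therefore values that did not pass the test. Control 2 was the highest library for 28 of the 41 genes, so counts are also given further on with each control left out.

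Library depth was 23954000 and 25907000 reads in the MBP libraries and 24349000 and 23571000 reads in the controls, as worked out from what 1 read is worth in the FPKM values. Most of the defining astrocyte markers were near 0 in both groups, with 6 of the 9 listed markers under 1 FPKM in every library. Gfap lay between 0.119 and 0.282 FPKM and Slc1a3 between 0 and 0.00452 FPKM. The summed level of the 9 astrocyte markers was 21.2 and 21.9 FPKM in the MBP libraries and 20.8 and 22.1 FPKM in the controls, most of it Glul, the glutamine synthetase gene. Sox10, a marker of the oligodendrocyte and Schwann lineages, stood at 89.6 and 87.8 FPKM in the MBP libraries and at 99.97 and 96.1 FPKM in the controls. The summed oligodendrocyte-lineage markers came to 105 and 105 FPKM in the MBP libraries and 119 and 113 FPKM in the controls. The summed neuron markers came to 26.0 and 25.6 FPKM in the MBP libraries and 35.4 and 32.6 FPKM in the controls, mostly Tubb3, while Snap25 and Syt1 were at or near 0. The part of these differences in the results below was not tested.

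NRF2 acts through the antioxidant response element, so the promoter windows of the genes were searched for its core, TGACNNNGC, on both strands. RefSeq windows (GRCm38.p6), from 250 bases before to 50 bases after the gene start, were at hand for 37 of the 43 names. Abcc1, Gclc, Gsr, Gsta4, Hmox1 and Prdx6 had no window and were not searched. The core was found for 11 of the 37 genes (29.7%), against 14.0% of all 27025 genes with a window. The 11 were G6pdx, Gclm, Gstm5, Me1, Mgst1, Nfe2l2, Pgd, Prdx1, Sod1, Srxn1 and Txnrd1. Some matches, such as TGACTCAGC in Prdx1, also hold the AP-1 letters TGACTCA. Windows around the core are printed for 3 genes whose match lies wholly before the annotated gene start: an abundant peroxidase, a gene with lower values in MBP and a ligase subunit. They run 5′ to 3′ on the gene's strand, with the core or its reverse complement in capitals. They lie at chr4:116685451-116685489 (Prdx1, plus strand), chr16:90220691-90220729 (Sod1, plus) and chr3:122245408-122245446 (Gclm, plus).
Prdx1: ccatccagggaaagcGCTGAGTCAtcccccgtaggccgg
Sod1: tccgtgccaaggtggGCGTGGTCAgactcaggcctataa
Gclm: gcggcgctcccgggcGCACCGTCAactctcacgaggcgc

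Slc7a11 encodes xCT, the cystine-carrying subunit, and is a known target of ATF4, the transcription factor of amino acid shortage, as well as of NRF2. The ATF4-type core TGATGNAA, searched on both strands, was found in the windows of 4.51% of all genes. Among the 37 it was found in Slc7a11 alone (2.70%). It occurred there in 2 copies facing each other, which begin 66 and 47 bases before the gene start. Whether ATF4 acted on the gene in these cells was not tested. The 250 bases before the start are shown for the gene with the largest positive difference of the 41 (chr3:50443614-50443863, minus strand, GRCm38.p6), with both copies in capitals.
Slc7a11: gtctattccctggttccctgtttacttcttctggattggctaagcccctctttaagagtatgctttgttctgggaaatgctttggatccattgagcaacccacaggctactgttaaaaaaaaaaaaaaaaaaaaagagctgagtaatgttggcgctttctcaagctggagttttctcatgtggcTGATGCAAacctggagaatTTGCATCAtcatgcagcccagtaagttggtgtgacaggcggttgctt

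The levels of the antioxidant genes spanned a wide range, and most were high for this line. Ferritin heavy chain, Fth1, was the highest at a mean of 775 FPKM over the 4 libraries, followed by Ftl1 at 341 FPKM, Prdx1 at 172 FPKM and Gpx4 at 129 FPKM. In all, 7 of the 42 had a mean of at least 100 FPKM and 34 had a mean of at least 10 FPKM. Gss, which adds the glycine of glutathione, was among the lowest at a mean of 2.02 FPKM, and it lay at percentile 15.6 of all tested genes. Its neighbours in the pathway, Gclc and Gclm, averaged 43.9 and 32.1 FPKM. Gsta4, a transferase known for 4-hydroxynonenal, lay under the filter, with 0.0330 and 0.0915 FPKM in the MBP libraries and 0.0649 and 0.235 FPKM in the controls, from 1, 3, 2 and 7 reads.

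**Figure D1:**
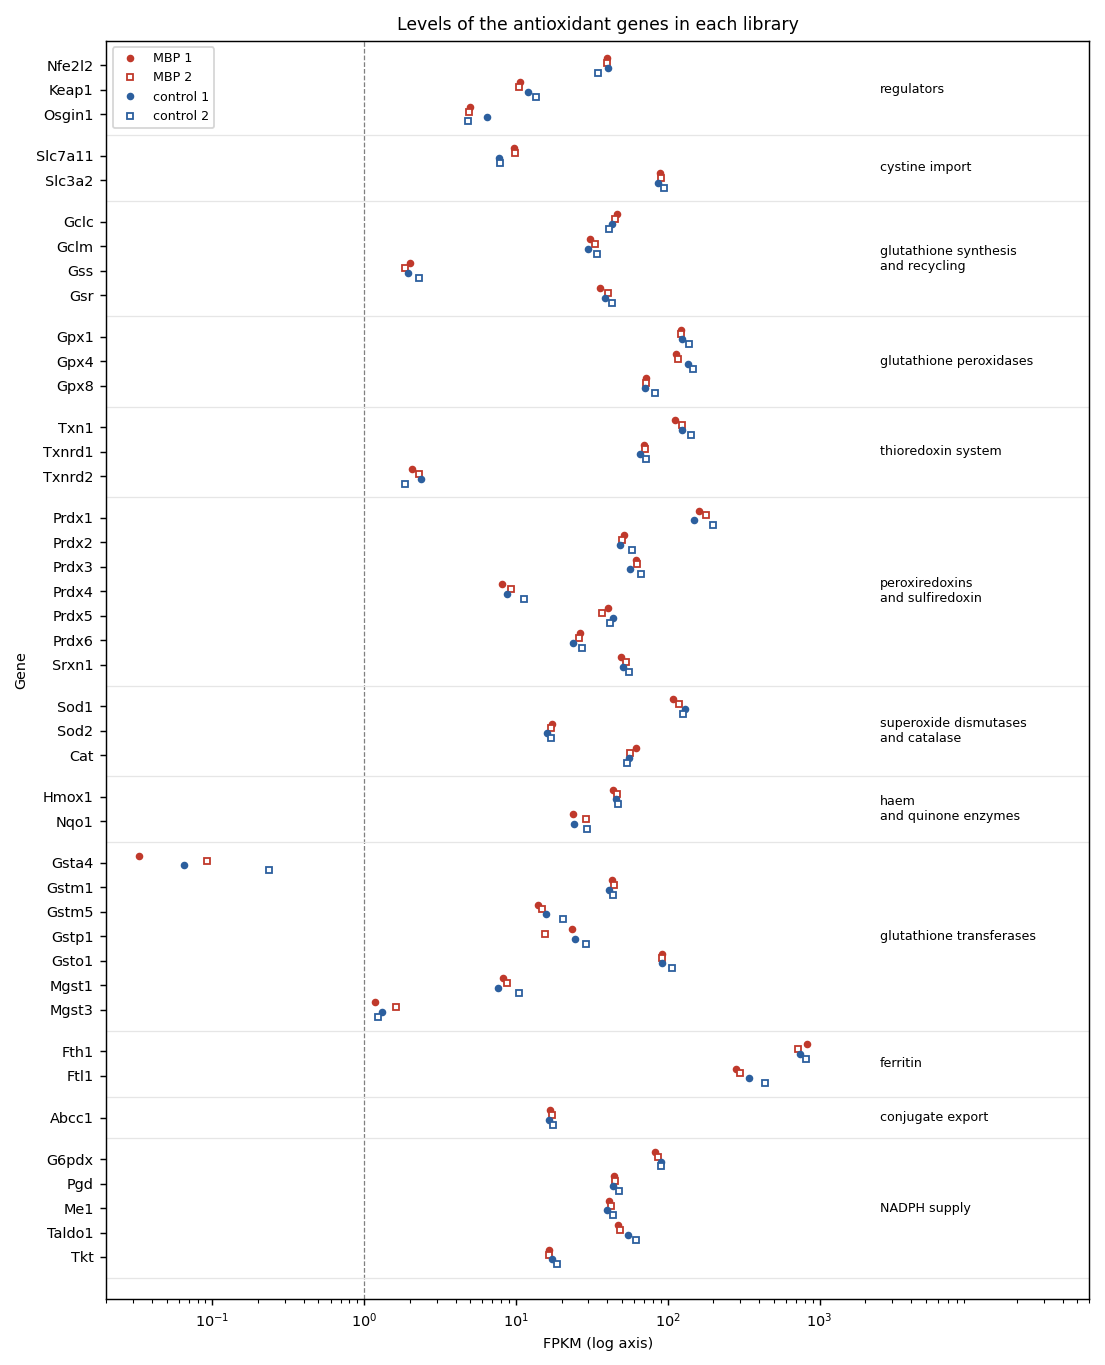
FPKM (log axis) of the 42 antioxidant genes in the table, grouped by role, in the 2 MBP libraries (red) and the 2 control libraries (blue), with the filter of 1 FPKM as a dashed line. Fth1 lies highest at a mean of 775 FPKM and Gsta4 alone lies under 1 FPKM in every library.

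Among the regulators, Keap1 had lower values in MBP and Nfe2l2, which encodes NRF2, did not separate the groups. Keap1, the adaptor that targets NRF2 for degradation (chromosome 9, 21229730 to 21239361, minus strand, GRCm38), had 10.7 and 10.52 FPKM in the MBP libraries, against 12.0 and 13.6 FPKM in the controls. Its groups did not overlap, and the controls lay further apart than the MBP libraries. The log2 fold change was -0.25 (95% interval -0.44 to -0.06, limma adjusted p = 0.503), and -0.18 once the values were corrected for transcript GC content and length. Nfe2l2 had 40.1 and 39.9 FPKM in the MBP libraries, against 40.5 and 34.9 FPKM in the controls, so that control 2 was low and control 1 was above both MBP libraries. Osgin1, an oxidative-stress-induced growth inhibitor and NRF2 target, had 4.96 and 4.92 FPKM in the MBP libraries, against 6.42 and 4.81 FPKM in the controls, and its groups overlapped.

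Cystine import and the first step of glutathione synthesis held 2 of the 3 genes with higher values in MBP without overlap, which make up 7.32% of the 41 against 21.3% of all tested genes. Slc7a11 (chromosome 3, 49892526 to 50443614, minus strand) had 9.64 and 9.81 FPKM in the MBP libraries, against 7.77 and 7.86 FPKM in the controls. The gap between the groups was wide beside the spread within either of them, and the log2 fold change was 0.28 (95% interval 0.14 to 0.43, limma adjusted p = 0.457). It stood at 0.19 after the GC and length correction. Slc3a2, the heavy chain that carries xCT to the membrane, had 89.3 and 90.7 FPKM in the MBP libraries, against 86.5 and 94.3 FPKM in the controls. Both its MBP values lay between the controls, and the interval of its log2 fold change ran from -0.17 to 0.16.

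Gclc, the catalytic subunit of glutamate-cysteine ligase (chromosome 9, 77754535 to 77794485, plus strand), had 46.6 and 45.0 FPKM in the MBP libraries, against 43.0 and 41.0 FPKM in the controls. The groups did not overlap, and the log2 fold change was 0.12 (95% interval -0.02 to 0.27, limma adjusted p = 0.532). Gclm, the modifier subunit, had 30.7 and 33.4 FPKM in the MBP libraries, against 29.7 and 34.3 FPKM in the controls, a log2 fold change of 0.0043 (-0.22 to 0.23). Whether the subunits differed from each other was not tested. Gss had a log2 fold change of -0.08, and Gsr, which reduces oxidised glutathione with NADPH, one of -0.11, both with overlapping groups. The 6 genes of cystine import and glutathione synthesis together had a median log2 fold change of -0.00055, beside -0.0048 over all tested genes.

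The glutathione peroxidases had lower or overlapping values in MBP. Gpx4, the selenoenzyme that reduces lipid hydroperoxides and restrains ferroptosis (chromosome 10, 80047166 to 80056439, plus strand), had 114 and 117 FPKM in the MBP libraries, against 136 and 147 FPKM in the controls. The groups were clearly apart, with a log2 fold change of -0.29 (95% interval -0.45 to -0.12, limma adjusted p = 0.486), or -0.16 with GC content and length corrected. The longest Gpx4 transcript has 60.2% GC, the highest of the 41 genes. Gpx1, the abundant selenoenzyme for hydrogen peroxide, had 123 and 123 FPKM in the MBP libraries, against 125 and 138 FPKM in the controls. Its groups were separate by a narrow margin, and its log2 fold change of -0.09 turned to 0.02 after the GC and length correction. Gpx8, a peroxidase of the endoplasmic reticulum membrane, had 71.7 and 72.3 FPKM in the MBP libraries, against 71.2 and 82.4 FPKM in the controls, with only control 2 apart.

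In the thioredoxin system, Txn1, cytosolic thioredoxin (chromosome 4, 57943373 to 57956411, minus strand), had 111 and 123 FPKM in the MBP libraries, against 125 and 143 FPKM in the controls. MBP 2 and control 1 nearly met, and the log2 fold change was -0.19 (95% interval -0.43 to 0.05, limma adjusted p = 0.552). Txnrd1, its cytosolic reductase and a classic NRF2 target, had 69.3 and 71.2 FPKM in the MBP libraries, against 66.1 and 71.4 FPKM in the controls. Txnrd2, the mitochondrial reductase, had 2.08 and 2.28 FPKM in the MBP libraries, against 2.35 and 1.87 FPKM in the controls. Both reductases overlapped.

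Most peroxiredoxins reduce peroxides with electrons from thioredoxin. Of the 7 genes in this role, the peroxiredoxins and Srxn1, 6 overlapped between groups. Prdx1, the most abundant of them and cytosolic, had 161 and 179 FPKM in the MBP libraries, against 150.0 and 198 FPKM in the controls. The controls lay on either side of both MBP libraries, so the widest gap was between untreated libraries. Prdx5, found in mitochondria and peroxisomes (chromosome 19, 6906697 to 6910106, minus strand), was the exception to the overlap, with 40.5 and 36.8 FPKM in the MBP libraries, against 43.6 and 41.8 FPKM in the controls. Its log2 fold change was -0.14 (95% interval -0.31 to 0.03, limma adjusted p = 0.545) and -0.04 after the GC and length correction. It overlaps Trmt112 on the opposite strand, and whether counting used strand is not known. Prdx2, mitochondrial Prdx3, Prdx4 of the endoplasmic reticulum, Prdx6 and Srxn1, the sulfiredoxin that repairs overoxidised peroxiredoxins, had log2 fold changes from -0.19 (Prdx4) to 0.04 (Prdx6). Over the 3 tested glutathione peroxidases, the peroxiredoxins and Srxn1, 10 genes in all, the median log2 fold change was -0.08. It was -0.18 without control 1, 0.0097 without control 2 and -0.03 with GC content and length corrected.

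Of the genes that remove superoxide and hydrogen peroxide, Sod1 had lower and Cat higher values in MBP without overlap, and whether they differed from each other was not tested. Sod1, the copper and zinc superoxide dismutase (chromosome 16, 90220742 to 90226322, plus strand), had 108 and 118 FPKM in the MBP libraries, against 130.1 and 126 FPKM in the controls. Its groups did not overlap, and its log2 fold change was -0.18 (95% interval -0.35 to -0.0069, limma adjusted p = 0.512). Cat, catalase of the peroxisome (chromosome 2, 103453849 to 103485160, minus strand), had 62.2 and 56.8 FPKM in the MBP libraries, against 55.4 and 54.3 FPKM in the controls. MBP 2 lay close to control 1, and the log2 fold change was 0.11 (95% interval -0.05 to 0.28, limma adjusted p = 0.582). Sod2, the mitochondrial enzyme, had 17.3 and 17.0 FPKM in the MBP libraries, against 16.1 and 17.1 FPKM in the controls.

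Hmox1 and Nqo1, often used as readouts of NRF2 activity, had overlapping groups. Hmox1, which degrades haem, had 43.3 and 46.4 FPKM in the MBP libraries, against 45.4 and 47.3 FPKM in the controls, a log2 fold change of -0.05 (95% interval -0.20 to 0.11, limma adjusted p = 0.788). Nqo1, a quinone reductase, had 23.7 and 28.8 FPKM in the MBP libraries, against 24.2 and 29.3 FPKM in the controls. Each group of Nqo1 held a low and a high library at nearly the same levels, and the interval of the log2 fold change ran from -0.36 to 0.31. A change in either direction within such intervals was not excluded by these libraries.

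Glutathione transferases attach glutathione to reactive compounds. Gstp1, the pi-class enzyme (chromosome 19, 4035407 to 4037921, minus strand), had 23.3 and 15.6 FPKM in the MBP libraries, against 24.6 and 28.9 FPKM in the controls. MBP 1 lay near control 1 and MBP 2 lay far below, so the log2 fold change of -0.46 had the widest interval of the 41 genes (-0.96 to 0.03, limma adjusted p = 0.517). Gstp1 has close copies, and Gstp2 stood at 0.108 and 0.1504 FPKM in the MBP libraries and at 0.373 and 0.220 FPKM in the controls. How reads were divided between copies is not known, which leaves the values of Gstp1 uncertain. Gstm5, a mu-class enzyme (chromosome 3, 107895821 to 107898686, plus strand), had 14.0 and 14.7 FPKM in the MBP libraries, against 15.7 and 20.3 FPKM in the controls. Control 2 was far above the other libraries, and the log2 fold change was -0.30 (95% interval -0.62 to 0.02, limma adjusted p = 0.518). Gstm1, Gsto1, Mgst1 and Mgst3 overlapped, with log2 fold changes of 0.05, -0.11, -0.07 and 0.07. Gstp1 stood at -0.19 without MBP 2. The median over the 6 tested transferases was -0.09, or -0.25 without control 1 and 0.03 without control 2.

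Ferritin stores iron and so limits the iron that drives peroxide chemistry. Ftl1, its light chain (chromosome 7, 45457944 to 45459884, minus strand), had 282 and 301 FPKM in the MBP libraries, against 341 and 441 FPKM in the controls. The groups did not overlap, but the controls were further from each other than control 1 was from the MBP libraries. The log2 fold change was -0.41 (95% interval -0.76 to -0.06, limma adjusted p = 0.503) and -0.29 after the GC and length correction. Fth1, the heavy chain that oxidises iron, had 821 and 727 FPKM in the MBP libraries, against 743 and 809 FPKM in the controls, both of which lay between the MBP libraries. Ferritin genes have many processed copies in the genome. Fth-ps2, 1 such copy in the table, had 6.39 and 7.33 FPKM in the MBP libraries and 4.78 and 4.36 FPKM in the controls. Abcc1, a pump that exports glutathione conjugates, had 16.7 and 17.4 FPKM in the MBP libraries, against 16.6 and 17.4 FPKM in the controls (log2 fold change -0.00050, limma adjusted p = 0.998).

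Of the 5 genes listed under NADPH supply, 3 had lower values in MBP without overlap, as had 23.5% of all tested genes. Among them G6pdx makes NADPH, while Taldo1 and Tkt work in the non-oxidative branch of the pentose phosphate pathway, which makes none. Taldo1, transaldolase of the pentose phosphate pathway (chromosome 7, 141392199 to 141402968, plus strand), had 47.0 and 48.5 FPKM in the MBP libraries, against 54.9 and 62.1 FPKM in the controls. The MBP libraries were close together and the controls were not, and the log2 fold change was -0.28 (95% interval -0.48 to -0.09, limma adjusted p = 0.496). It stood at -0.20 after the GC and length correction. G6pdx, the enzyme of the first step (chromosome X, 74409483 to 74429194, minus strand), had 82.7 and 86.1 FPKM in the MBP libraries, against 89.8 and 89.7 FPKM in the controls, a log2 fold change of -0.09 (-0.23 to 0.05). Tkt, transketolase (chromosome 14, 30548359 to 30574720, plus strand), had 16.5 and 16.4 FPKM in the MBP libraries, against 17.1 and 18.6 FPKM in the controls, a log2 fold change of -0.11 (-0.27 to 0.05). For these genes the limma adjusted p was 0.600 (G6pdx) and 0.569 (Tkt). Pgd, the other oxidative enzyme of the pathway, and Me1, malic enzyme, overlapped, at log2 fold changes of -0.04 and 0.0067. The median over the 5 genes was -0.09.

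**Figure D2:**
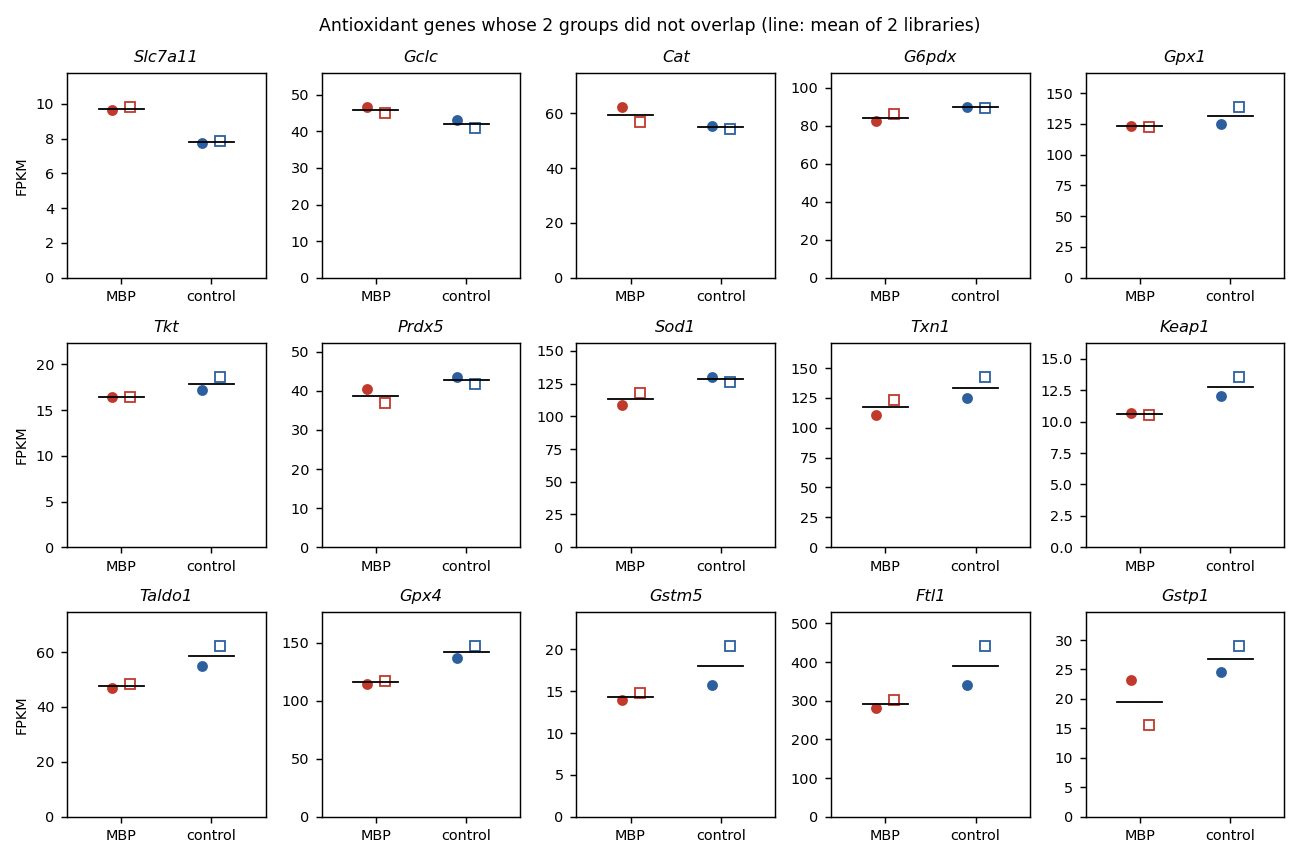
FPKM in the MBP libraries (red, left) and the control libraries (blue, right) for the 15 tested antioxidant genes whose groups did not overlap; circles are library 1, squares library 2, lines the mean of 2. Slc7a11, Gclc and Cat lie higher in MBP and the other 12 lower. On the log2 scale, control 2 lies furthest above control 1 for Ftl1, Gstm5 and Gstp1.

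Counted over the 41 tested genes, 3 had higher values in both MBP libraries than in both controls (21.3% of all tested genes) and 12 had lower values (23.5% of all tested genes). The 3 were Slc7a11, Gclc and Cat, which make up 7.32% of the 41. The 12 were Keap1, Gpx1, Gpx4, Txn1, Prdx5, Sod1, Gstm5, Gstp1, Ftl1, G6pdx, Taldo1 and Tkt, or 29.3%. The share of lower genes lay near the share over all genes, and that of higher genes lay under it. The median log2 fold change was -0.06 over the 41, and 28 of them were negative. Of the 11 genes with the antioxidant response core in their window, 0 were higher and 3 lower without overlap (Gstm5, Sod1 and G6pdx), with a median of -0.04. Over the 25 tested genes whose window lacked it, 2 were higher and 9 lower, with a median of -0.09. These 25 included Nqo1, Osgin1 and Slc7a11, named above as NRF2 targets or readouts. The split therefore does not separate NRF2 targets from other genes, and sequence outside the windows was not searched. Gclc, higher without overlap, and Hmox1 had no window and so are in neither set.

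**Figure D3:**
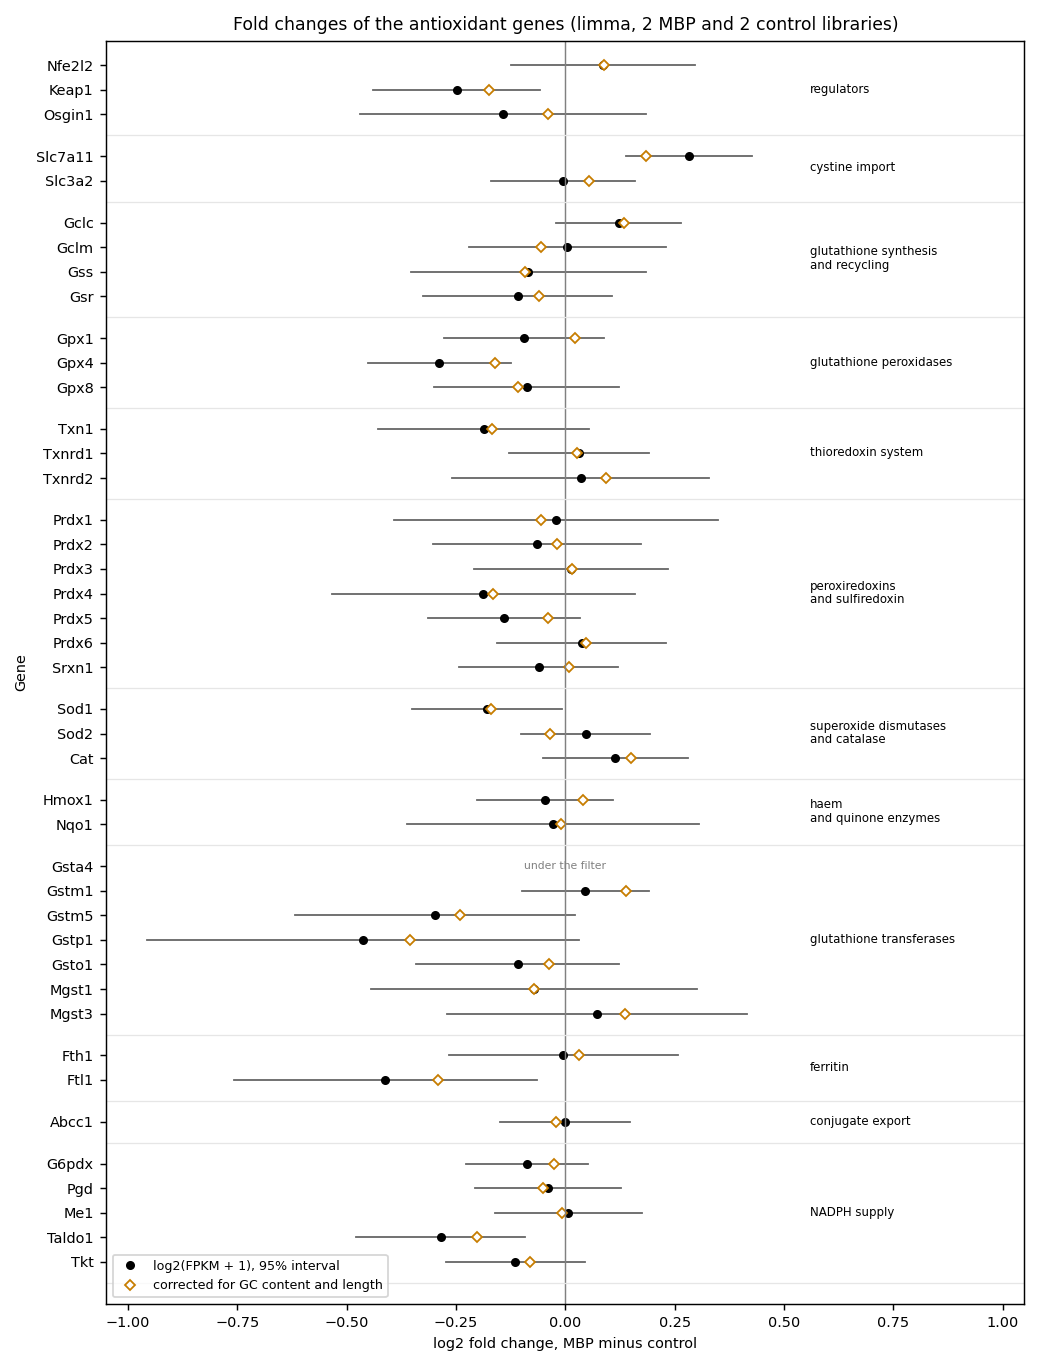
Log2 fold change (MBP minus control) of each tested antioxidant gene on the log2(FPKM + 1) scale with limma's 95% interval (black), and after correction for GC content and length (open diamonds), grouped by role. Most intervals cross 0; Slc7a11 lies highest at 0.28 and Gstp1 lowest at -0.46, and the corrected values of Gpx4 (-0.16) and Ftl1 (-0.29) lie nearer 0.

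Control 2 stood apart from the other libraries in these genes. Relative to each gene's mean over the 4 libraries, the 41 genes had a median deviation of -0.05 in MBP 1, -0.0021 in MBP 2, -0.03 in control 1 and 0.10 in control 2 on the log2 scale. Over all tested genes these medians lay between -0.0091 and 0.0072. Control 2 was the highest of the 4 libraries for 28 of the 41 genes (68.3%), and for 32.3% of all tested genes. It was above control 1 for 32 of the 41 (78.0%), against 49.5% of all tested genes. The larger of the within-group differences exceeded the difference of the group means for 31 of the 41 genes (75.6%), and for 69.1% of all tested genes. With control 1 left out, 6 genes were higher and 31 lower without overlap (38.5% and 41.1% of all tested genes). With control 2 left out, 18 were higher and 15 lower (35% and 37.9% of all tested genes). The median of the 41 was -0.11 without control 1 and 0.0087 without control 2. What set control 2 apart was not tested.

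**Figure D4:**
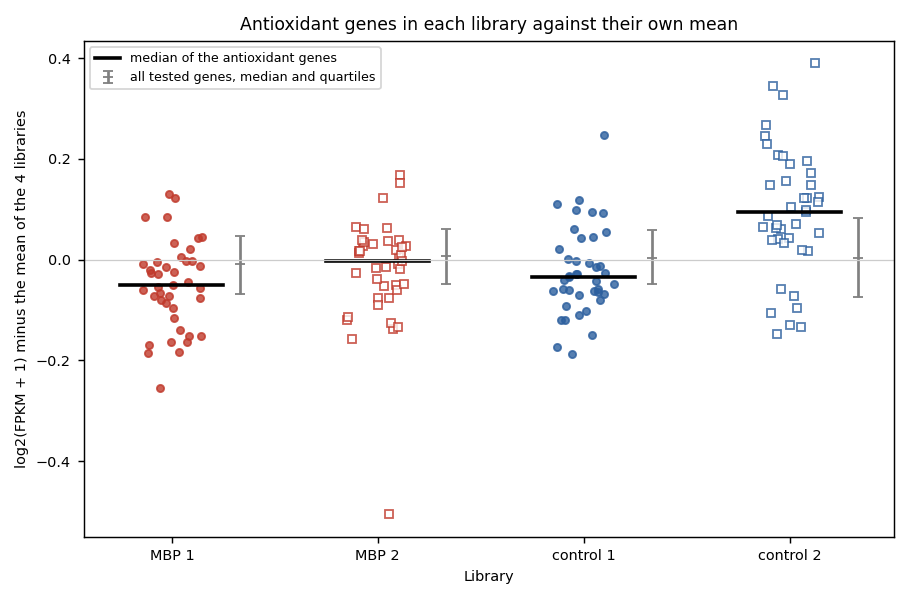
Deviation of each of the 41 tested antioxidant genes from its mean over the 4 libraries (log2 scale) in MBP 1, MBP 2, control 1 and control 2; black bars are the medians of these genes, grey bars the median and quartiles of all tested genes. The median is 0.10 in control 2 and at or under -0.0021 in the other 3 libraries, and the lone low point in MBP 2 is Gstp1.

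Fold changes also moved with the GC content of the transcript. The rank correlation (Spearman) between GC content and log2 fold change was -0.48 over the 41 genes and -0.44 over 12389 tested genes; genes share the same 4 libraries, so both are descriptions. Keap1, Gpx4 and Ftl1, at 58.0%, 60.2% and 58.1% GC, lay on the negative side, and Slc7a11, at 40.7% GC, on the positive side. The genes next lowest in GC content, Gclm, Sod2, Prdx1 and Gpx8 (42.1% to 44.3%), stood at 0.0043, 0.05, -0.02 and -0.09. With GC content and length corrected, the median of the 41 was -0.03, with 5 genes higher (12.2%) and 9 lower (22.0%) without overlap. Over all genes so corrected, these shares were 19.6% and 19%. Slc7a11 at 0.19, Gclc at 0.13 and Cat at 0.15 kept positive values, and Keap1, Gpx4, Taldo1 and Ftl1 kept negative ones.

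Other genes of the same pathways were counted next. Of 92 further genes listed, 87 were in the table and 64 entered the test, and 0 of them passed limma's adjusted p. At an unadjusted p under 0.05, 1 was higher (Txnip, against 3.81% of all tested genes) and 7 were lower (against 5.87%). The groups did not overlap for 11 genes with higher values (17.2%, against 21.3% of all tested genes) and 22 with lower values (34.4%, against 23.5%). The median log2 fold change was -0.03. Control 2 was the highest library for 34 of these 64 genes (53.1%, against 32.3% of all tested genes). It was above control 1 for 46 of them (71.9%, against 49.5% of all tested genes). Among the partners of NRF2, Cul3, the ligase scaffold that works with KEAP1, stood at a log2 fold change of 0.13 and the small Maf gene Mafk at -0.14. Of other NRF2-associated enzymes, Blvrb, a biliverdin reductase, stood at -0.17 and Aldh3a1, an aldehyde dehydrogenase, at -0.14. The transferase Gstm2 stood at -0.21 and Hagh, a glyoxalase, at -0.18. Ccs, the copper chaperone of Sod1, stood at -0.19 and the glutaredoxin Glrx5 at -0.21. In NADPH supply, Pgls, of the second step of the pentose phosphate pathway, stood at -0.18 and Idh2, a mitochondrial isocitrate dehydrogenase, at -0.17. Aifm2, the ferroptosis suppressor FSP1, had 2.03 and 2.15 FPKM in the MBP libraries, against 2.61 and 2.94 FPKM in the controls. It stood at -0.29, and the iron regulator Ireb2 at 0.16. Limma's adjusted p for these 12 genes lay between 0.503 and 0.529.

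The annotation deposited with the table gave the cytosol for 17 of the 42 genes (40.5%, against 10.51% of tested genes) and the mitochondrion for 17 (40.5%, against 9.86%). It listed the extracellular exosome for 24 (57.1%, against 12.5%). These terms were not used to choose the genes and are given as a description.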

How the data were processed

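Total RNA of 4 samples of C8-D1A cells was sequenced after ribosomal depletion with a directional kit, per the labels' protocols. Per the submitters' processing notes, bcl2fastq and HISAT2 were used with the GRCm38 build; how fragments were counted, and whether by strand, is not given in the sources used here. FPKM values were deposited by the authors for 24169 genes. Columns were matched to samples by title, and replicates were numbered in accession order, which pairs nothing.

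Values were tested as log2(FPKM + 1), which understates changes of low genes, for the 12403 genes with at least 1 FPKM in at least 2 libraries. The test was limma 3.58.1 in R 4.3.3 (trend, two-sided, MBP minus control, Benjamini-Hochberg over all tested genes, threshold 0.05). It was also run on simulated data with spreads shuffled over genes, which does not check how spread follows level. Reads were recovered from the deposited step size with GENCODE M21 exon lengths: at least 99.95% of single-exon values and 93.8% of all values under 1000 reads came out whole within 0.05, and 35 of the 42 genes in every library. Intervals are limma's 95% confidence limits for the difference of the group means. They rest on the spread between libraries, moderated over all tested genes, and are not ranges of the library values.

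The genes, lists and promoter motifs were chosen with earlier results of these data known. Libraries are given for genes whose groups did not overlap and the gene of each role with the lowest unadjusted p; partner genes, Aifm2 and markers shown beside them were chosen after their values were seen. Alternatives were a pseudocount of 0.1, no filter, a filter of 5 FPKM, TPM, median-of-ratios scaling, a correction of each library for GC content and length by loess (span 0.5), protein-coding genes only, limma-voom on the recovered reads (genes averaging 10 or more), and each library left out.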

Additional observations from a re-analysis of the deposited data

How the results depend on the processing

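No antioxidant gene passed in any alternative run that kept every library. The lowest adjusted p was 0.0866 (Slc7a11, at 0.32, and Ftl1, at -0.41, limma-voom on recovered reads). In that run 18 of the genes averaging 10 or more reads passed. Genes higher without overlap numbered 5 after the GC and length correction (19.6% of all genes so corrected). They numbered 5 with TPM, where the share over all genes was not computed. When 1 library was left out, 5 to 18 genes were higher (31.4% to 38.5% of all tested genes). Genes lower then numbered 14 to 31 (33.5% to 41.1% of all tested genes). With 1 library left out the median ran from -0.11 to 0.0087 over the 41 genes, from -0.0814 to 0.0717 for cystine import and glutathione synthesis, from -0.254 to 0.0286 for transferases and from -0.180 to 0.0097 for peroxidases with Srxn1, the lowest without control 1 and the highest without control 2. Of 324 member values under the other settings 311 kept their direction. Those that turned were, after the GC and length correction, Slc3a2 (0.0543), Gclm (-0.0549), Gpx1 (0.0211), Srxn1 (0.00909), Sod2 (-0.0343), Hmox1 (0.0398), Fth1 (0.0316) and Me1 (-0.00757), with TPM Slc3a2 (0.0168), Prdx1 (0.00165), Fth1 (0.0175) and Abcc1 (0.0215), and with median-of-ratios Abcc1 (0.00358); the cause was not tested. With a library left out 21 genes took either sign: Nfe2l2 (-0.0185 to 0.190), Osgin1 (-0.320 to 0.0334), Slc3a2 (-0.0667 to 0.0560), Gclm (-0.0961 to 0.105), Gpx8 (-0.192 to 0.0153), Txnrd1 (-0.0239 to 0.0866), Txnrd2 (-0.0771 to 0.147), Prdx1 (-0.219 to 0.178), Prdx2 (-0.189 to 0.0594), Prdx3 (-0.0986 to 0.126), Prdx6 (-0.0527 to 0.128), Srxn1 (-0.126 to 0.00410), Hmox1 (-0.0952 to 0.00117), Nqo1 (-0.165 to 0.108), Gsto1 (-0.227 to 0.00874), Mgst1 (-0.282 to 0.138), Mgst3 (-0.0609 to 0.204), Fth1 (-0.0924 to 0.0829), Abcc1 (-0.0341 to 0.0331), Pgd (-0.107 to 0.0276) and Me1 (-0.0579 to 0.0713). In all 18 genes, Keap1, Slc7a11, Gclc, Gss, Gsr, Gpx4, Txn1, Prdx4, Prdx5, Sod1, Cat, Gstm1, Gstm5, Gstp1, Ftl1, G6pdx, Taldo1 and Tkt, kept their sign in each alternative that gave them a value (Gss was under the filter of 5 FPKM). Some came close to 0, namely Gss (-0.0012) and Prdx4 (-0.014) without control 2 and Gstm1 (0.0043) without control 1. Depth limits Gsta4 (1 to 7 reads). No paired analysis was possible because the replicate numbers follow accession order and mark no shared culture or day.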

Other observations

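Ratios between partner genes of the module were computed per library, on the FPKM scale, after the values of the genes had been seen, and are given as values with no test. Fth1 stood at 2.92 and 2.41 times Ftl1 in the MBP libraries, against 2.18 and 1.84 times in the controls. Slc7a11 stood at 0.108 and 0.108 of Slc3a2 in the MBP libraries, against 0.0898 and 0.0833 in the controls. Keap1 stood at 0.266 and 0.264 of Nfe2l2 in the MBP libraries, against 0.296 and 0.389 in the controls. The groups did not overlap in these ratios, and the share of all gene pairs that separate in this way was not computed. Single genes separated in 21.3% (higher) and 23.5% (lower) of all tested genes. Gclc stood at 1.51 and 1.35 times Gclm in the MBP libraries, against 1.45 and 1.19 times in the controls, and its groups overlapped.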
